A study of Mus musculus with 6 samples.

Results

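The genes described here encode SNARE proteins, which drive the fusion of intracellular membranes, and proteins that bind syntaxins, one family of SNAREs. They were chosen by symbol: every gene whose symbol begins with Vamp, Stx or Stxbp followed by a digit, together with Snap23, Snap25, Snap29, Snap47, Sec22b, Ykt6, Bet1, Gosr1, Gosr2, Vti1a and Vti1b. The rule found 38 genes with 95 probe sets, among 18193 genes with a probe set of their own, and the probe set that was brightest on average over the 6 arrays stood for each gene.

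Gene expression was measured on 6 Affymetrix mouse arrays of mouse embryonic fibroblasts (MEFs), the mesenchymal cells that grow out of a dissociated embryo. A group of 3 arrays carries the label abl/arg knockout, for cells without both Abl kinases, c-Abl and Arg (encoded by Abl1 and Abl2), and the other group of 3 arrays is labelled wild type. Both groups are labelled C57BL/6, taken at 14 days of gestation from males and females pooled, and both were cultured in Dulbecco's modified Eagle's medium with 10% heat-inactivated serum. The labels give neither the passage of the cells nor whether they had been immortalised, nor whether replicate arrays stand for separate cultures. The p-values therefore reflect the variation among these 6 arrays alone, which may be technical, and the number of arrays limits the precision.

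SNAREs sit on vesicles and on their target membranes, and fusion starts when R-SNAREs and Q-SNAREs (classes Qa, Qb, Qc and the double Qbc) zip into one helical bundle. Each transport step uses its own set, so that one combination serves the path from the endoplasmic reticulum (ER) to the Golgi, another the late endosome and another the cell surface. Syntaxin-binding proteins of the Sec1/Munc18 family hold syntaxins ready for assembly, whereas tomosyns and amisyn compete with R-SNAREs for the same partners. In fibroblasts these proteins serve the secretion of matrix, the recycling of surface receptors, the delivery of lysosomal enzymes and autophagy.

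Vamp8 and Stxbp6 differed most between the groups, in opposite directions. Vamp8, an R-SNARE of late endosomes and lysosomes, had signals of 4.52, 4.88 and 6.29 on the arrays labelled knockout, against 906, 902 and 865 on the wild-type arrays. Stxbp6, which encodes amisyn, had 429.8, 401 and 413 on the arrays labelled knockout, against 3.53, 3.90 and 3.11 on the wild-type arrays. Stxbp2, the Sec1/Munc18 partner of syntaxins in regulated secretion, was lower in the arrays labelled knockout. Gosr2 and Stx16, SNAREs of the Golgi, were higher, Gosr2 in its brightest probe set only.

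The promoter windows of the 3 genes with the largest differences, and of Vamp5, which fell and lies beside Vamp8 on chromosome 6, are shown to compare their base composition. Each window is the RefSeq sequence (assembly GRCm38.p6) from 250 bases before to 50 bases after an annotated start, written 5′ to 3′ on the gene's strand, with every CG in capitals. Vamp8 lies at chr6:72390618-72390917 on the minus strand, Vamp5 at chr6:72380419-72380718 on the minus strand, Stxbp2 at chr8:3630859-3631158 on the plus strand and Stxbp6 at chr12:45074434-45074733 on the minus strand.
Vamp8: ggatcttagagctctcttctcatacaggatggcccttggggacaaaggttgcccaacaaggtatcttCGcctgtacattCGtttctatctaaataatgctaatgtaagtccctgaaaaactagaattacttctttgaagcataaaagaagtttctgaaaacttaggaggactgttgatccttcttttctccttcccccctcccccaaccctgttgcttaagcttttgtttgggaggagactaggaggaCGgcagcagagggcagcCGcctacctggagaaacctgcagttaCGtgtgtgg
Vamp5: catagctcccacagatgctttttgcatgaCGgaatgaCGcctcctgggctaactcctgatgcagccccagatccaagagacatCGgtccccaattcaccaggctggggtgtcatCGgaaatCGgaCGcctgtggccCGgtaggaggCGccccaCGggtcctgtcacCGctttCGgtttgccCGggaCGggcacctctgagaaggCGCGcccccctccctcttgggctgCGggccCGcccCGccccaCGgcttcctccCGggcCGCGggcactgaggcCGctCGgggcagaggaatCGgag
Stxbp2: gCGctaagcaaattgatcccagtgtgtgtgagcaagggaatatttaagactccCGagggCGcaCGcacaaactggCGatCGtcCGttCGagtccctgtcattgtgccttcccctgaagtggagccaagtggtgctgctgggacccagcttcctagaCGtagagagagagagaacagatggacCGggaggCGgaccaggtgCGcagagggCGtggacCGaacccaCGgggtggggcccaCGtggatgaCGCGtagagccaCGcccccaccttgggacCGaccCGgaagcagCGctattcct
Stxbp6: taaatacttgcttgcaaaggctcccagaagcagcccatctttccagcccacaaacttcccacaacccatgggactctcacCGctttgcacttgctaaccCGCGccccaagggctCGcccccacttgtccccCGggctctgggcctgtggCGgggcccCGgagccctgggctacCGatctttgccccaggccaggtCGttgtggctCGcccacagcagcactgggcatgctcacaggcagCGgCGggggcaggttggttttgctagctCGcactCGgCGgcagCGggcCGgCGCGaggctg
The Vamp8 window held 5 CG and 46.7% G and C. The windows of Vamp5, Stxbp2 and Stxbp6 held 25, 22 and 19 CG, with 67.3%, 61.3% and 66.3% G and C. Windows were matched by symbol for 34 of the 38 genes, that is all but Snap25, Vamp2, Vamp3 and Vamp7. Counting the first listed window of each gene, their CG numbers ran from 3 (Stx19) to 47 (Stxbp5) with a median of 22.5, against a median of 7 over all 32851 windows in the table. Vamp8 and Stx19 were the 2 genes with at most 5 CG, a number not exceeded in 43.6% of all windows. The GC box GGGCGG, searched on both strands, was found in the windows of 23 of the 34 genes and in 35.7% of all windows, and it occurred in Vamp5 alone among the 4 printed. TATAAA was found on either strand in 1 of the 34 and in 13.6% of all windows, and in none of the 4. The E-box core CACGTG, which reads the same on both strands, was found in 3 of the 34, Stxbp2 among them, and in 7.15% of all windows. A match is a description of these letters and not a binding site.

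Both targeted genes were measured first. Abl1 had a signal of 169.8 ± 8.22 on the arrays labelled knockout and 184.8 ± 4.46 on the wild-type arrays (SD, n = 3 each). The log2 difference was -0.11 (limma adjusted p = 0.0933). Abl2 had 254.1 ± 11.9 on the arrays labelled knockout and 256.1 ± 9.30 on the wild-type arrays, a difference of -0.01 (limma adjusted p = 0.874). Abl1 was lower on every array labelled knockout, but neither gene reached a limma adjusted p under 0.05. Both other Abl1 probe sets, with means under 32 in both groups, rose (0.28 and 0.21), and the other Abl2 probe sets did not differ. Where the probe sets lie relative to the deleted parts was not analysed here, so every direction below is that of the arrays labelled knockout. Median signals ran from 13.4 to 14.7 over the 6 arrays. The lowest correlation across genes between arrays of one group was 0.998, and the highest between arrays of different groups was 0.904. As a sign of RNA quality, the signal at the 3′ end over that at the 5′ end of the beta-actin control had a log2 ratio of 0.354 to 0.377 on the arrays labelled knockout and 0.440 to 0.502 on the wild-type arrays. For the Gapdh control the ratio was -0.206 to -0.134 on the arrays labelled knockout and -0.192 to -0.109 on the wild-type arrays.

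The cells were checked against markers of fibroblasts and of other cell types. Of 10 fibroblast markers 7 rose and 2 fell, and their summed signal was 16533 to 17498 on the arrays labelled knockout and 11796 to 12469 on the wild-type arrays. Some defining markers were near the floor in one group: Col1a2 averaged 9.71 and Col3a1 14.9 on the arrays labelled knockout, against 2284 and 1934 on the wild-type arrays, while Pdgfra averaged 1789 on the arrays labelled knockout and 9.99 on the wild-type arrays. Thy1 and Lum were below 10 on all 6 arrays. All 7 epithelial markers were dim, with sums of 47.2 to 56.7 on the arrays labelled knockout and 66.2 to 68.1 on the wild-type arrays, and all 5 endothelial markers were dim as well, with sums of 32.2 to 37.6 labelled knockout and 34.7 to 42.4 wild type. The 7 leukocyte markers summed to 150.6 to 162.7 on the arrays labelled knockout and 74.8 to 79.0 on the wild-type arrays, with Lyz2 and Cd68 higher. Csf1r averaged 30.3 labelled knockout and 34.5 wild type (limma adjusted p = 0.144), lower on every array labelled knockout, and Ptprc, Tyrobp, Itgam and Adgre1 lay between 2.42 and 4.75 on every array. Of the 7 neuronal markers 5 fell, Tubb3 and Map2 most, with sums of 82.2 to 85.2 on the arrays labelled knockout and 207.5 to 223.8 on the wild-type arrays. The part of these markers in the results below was not tested, and in bulk RNA fewer cells of a type and less RNA per cell cannot be told apart.

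Signals were compared as log2(signal + 16), knockout minus wild type, with limma over all 18193 genes, and a gene rose or fell where its two-sided p, adjusted by Benjamini-Hochberg over all of them, was under 0.05. Of the 38 genes 13 rose, against 24.3% of all genes, and 15 fell, against 35.5%. At least 2-fold higher were 3 (Stxbp6, Gosr2 and Stx16), against 7.06% of all genes, and at least 2-fold lower were 2 (Vamp8 and Stxbp2), against 8.85%. The 3 arrays of one group lay wholly above or below those of the other for 32 of the 38, against 64.7% of all genes; the arrays labelled knockout were higher in 15 of them and lower in 17. The counts in either direction stand near those of all genes when dim genes are left out of both. A gene is called dim where its mean signal was under 32 in both groups, which held for 4 of the 38 and for 7997 of the 18193. A gene that is high in 1 group alone thus counts as not dim. Leaving out dim genes is therefore not independent of the difference between the groups. The 34 others had 12 rises and 15 falls, beside 3766 rises and 4863 falls among 10196 such genes. At least 2-fold higher were 3 of the 34 and 1264 of the 10196, and at least 2-fold lower were 2 and 1598. The groups did not overlap for 31 of the 34 and for 8937 of the 10196. The median difference was -0.06 for the 38 genes and -0.03 for all genes, and the median size of the difference regardless of sign was 0.40 for the 38 and 0.20 for all genes. Among genes that were not dim this order turned, with 0.44 for the 34 and 0.57 for the 10196. The median is not independent of the scaling: on poly-A spike controls it was 0.39 for the 38 genes and 0.42 for all genes, and on hybridization spike controls -0.32 and -0.29.

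**Figure D1:**
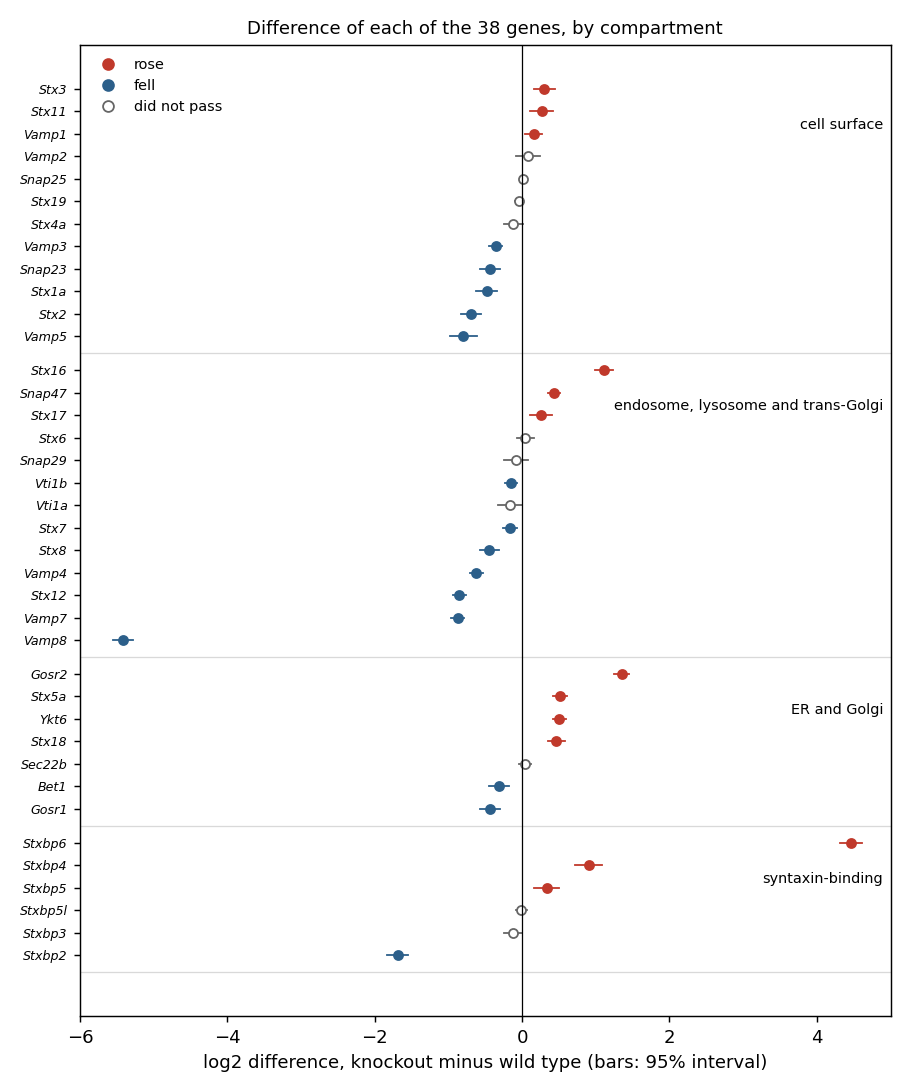
Log2 difference, knockout minus wild type, of each of the 38 genes (x axis), grouped by compartment down the page, with points filled red where the gene rose, blue where it fell and open where it did not pass; bars are 95% intervals. Vamp8 at -5.42 and Stxbp6 at 4.46 stand apart, and the other 36 lie between -1.69 and 1.35.

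**Figure D2:**
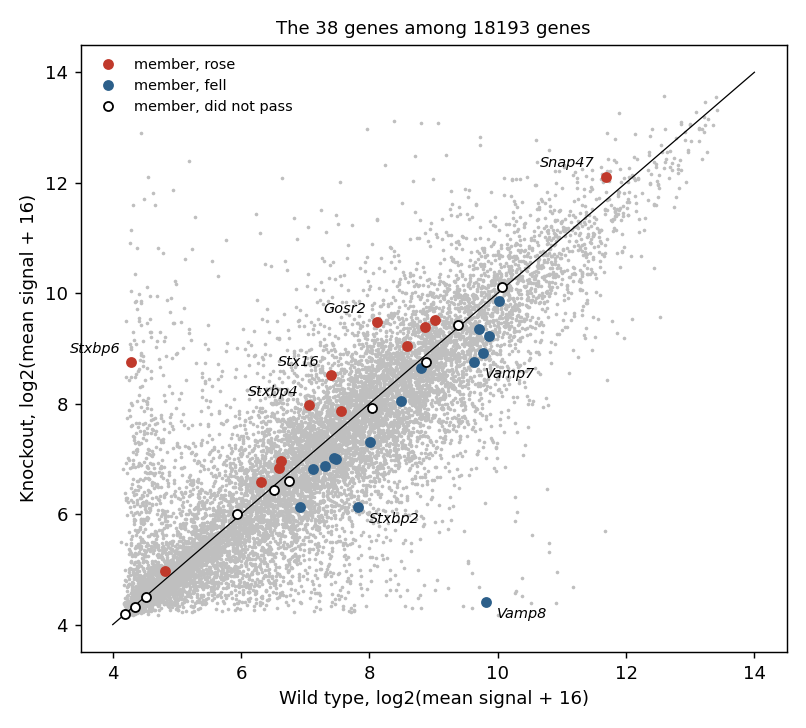
Log2(mean signal + 16) of the arrays labelled knockout (y axis) against that of the wild-type arrays (x axis), in grey for 18193 genes, with the 38 SNARE and syntaxin-binding genes filled red where they rose, blue where they fell and open where they did not pass; the line marks equal signals. Most of the 38 lie within the cloud of all genes along the line, Vamp8 lies far below it (means of 5.23 labelled knockout and 891 wild type) and Stxbp6 far above it (414 labelled knockout and 3.51 wild type).

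At the cell surface 12 genes were measured, of which 3 rose, 5 fell and 4 did not pass, and none reached 2-fold. For these counts and those of each set of genes below, 24.3% of all genes rose and 35.5% fell. Among the 10196 genes that were not dim 3766 rose and 4863 fell. Vamp5, an R-SNARE described in muscle and at the plasma membrane, had signals of 60.0, 46.7 and 54.1 on the arrays labelled knockout, against 109, 98.3 and 108 on the wild-type arrays, a difference of -0.80 ± 0.08 (SE; limma adjusted p = 2.86e-06). Stx2, a Qa-SNARE of the plasma membrane, had 143, 140.1 and 144 on the arrays labelled knockout, against 256, 249 and 218 on the wild-type arrays, a difference of -0.70 ± 0.06 (limma adjusted p = 5.96e-07). For both genes every array labelled knockout was lower than every wild-type array. The other Vamp5 probe set was dim and did not differ (11.6 ± 1.5 labelled knockout, 12.5 ± 0.825 wild type, SD, n = 3 each), so the fall of Vamp5 rests on a single probe set whose name ends in a.

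Among the SNAREs that serve surface fusion in most tissues, Snap23, the Qbc-SNARE outside neurons, fell by 0.44 with means of 101 ± 6.60 on the arrays labelled knockout and 143 ± 3.49 on the wild-type arrays (SD, n = 3 each). Vamp3, the R-SNARE of recycling endosomes, fell by 0.36, with means of 638 ± 21.9 labelled knockout and 823 ± 19.7 wild type. Their frequent partner Stx4a, the Qa-SNARE through which glucose transporter vesicles fuse, averaged 226 ± 15.7 labelled knockout and 248 ± 11.7 wild type, with overlapping arrays (difference -0.12, 95% interval -0.25 to 0.01, limma adjusted p = 0.0962). Without knockout array 3 this difference passed, at -0.16 (limma adjusted p = 0.0439). Vamp2, the R-SNARE of synaptic vesicles and of regulated secretion, averaged 48.5 ± 3.41 labelled knockout and 45.0 ± 0.0342 wild type, a difference of 0.08 (limma adjusted p = 0.389).

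Syntaxins known from specialised secretion went both ways with the signals as deposited. Stx1a, the synaptic Qa-SNARE, fell by 0.48, with means of 112 ± 9.11 on the arrays labelled knockout and 162 ± 5.17 on the wild-type arrays. Stx3, the Qa-SNARE of the apical surface of epithelia, rose by 0.30, with means of 216 ± 16.6 labelled knockout and 172 ± 11.3 wild type, and Stx11, which acts in the lytic granules of lymphocytes, rose by 0.27 in its brightest probe set, with 79.5 ± 2.73 labelled knockout and 63.3 ± 3.61 wild type. The second Stx11 probe set fell (-0.50), with 29.6 ± 0.917 labelled knockout and 48.7 ± 4.14 wild type. In the brightest probe sets the groups did not overlap for Stx1a, Stx3 or Stx11. All 3 calls depend on the scaling. On poly-A spike controls Stx1a was at -0.03 (limma adjusted p = 0.786). On hybridization spike controls Stx3 was at 0.04 and Stx11 at 0.01 (limma adjusted p = 0.605 and 0.910). Snap25 (the neuronal Qbc-SNARE), Stx19 and Vamp1 (an R-SNARE of synaptic vesicles) were dim, with array signals between 1.95 and 16.8. Of these Vamp1 passed, with a difference of 0.16, and lost the call without knockout array 1, wild-type array 1 or wild-type array 2 (0.12, 0.13 and 0.15; limma adjusted p = 0.0742, 0.0967 and 0.0676).

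On endosomes, lysosomes and the trans-Golgi 13 genes were measured, of which 3 rose, 7 fell and 3 did not pass. The fall of Vamp8, whose array values are given above, came to -5.42 ± 0.06 (SE; limma adjusted p = 6.38e-15). Its arrays labelled knockout lay below the median signal of their arrays, near the floor, so the size of the difference depends on the offset: it was -7.17 with an offset of 1 and -3.79 with an offset of 64. Vamp8 mediates the fusion of late endosomes with each other and of autophagosomes with lysosomes, and in mast cells, platelets and exocrine glands the release of granules.

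Vamp7, an R-SNARE of late endosomes and of lysosomes that fuse with the surface, had 404, 428 and 416 on the arrays labelled knockout, against 781, 794 and 757 on the wild-type arrays, a difference of -0.88 ± 0.04 (limma adjusted p = 1.11e-09). Vamp4, an R-SNARE of the trans-Golgi, had 581, 596 and 581 on the arrays labelled knockout, against 897, 948 and 891 on the wild-type arrays, a difference of -0.62 ± 0.04 (limma adjusted p = 2.24e-08). Both were lower on every array labelled knockout, so that all 3 R-SNAREs of this compartment fell by the probe sets used. All 3 stayed below 0 under both spike scalings, where Vamp4 did not pass on poly-A spike controls (-0.17, limma adjusted p = 0.0734). The second Vamp7 probe set also fell, with 128 ± 19.3 labelled knockout and 314 ± 39.7 wild type, whereas both other Vamp4 probe sets rose, as described below.

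Stx12, a Qa-SNARE of early and recycling endosomes, had 444, 479.9 and 473 on the arrays labelled knockout, against 848, 855 and 859 on the wild-type arrays, a difference of -0.85 ± 0.04 (limma adjusted p = 1.6e-09). Stx16, the Qa-SNARE of the trans-Golgi, went the other way, with 376, 327 and 344 on the arrays labelled knockout, against 156, 149 and 153 on the wild-type arrays, a difference of 1.11 ± 0.06 (limma adjusted p = 2.49e-09). Neither gene's groups overlapped. Stx12 lies on chromosome 4, where 78.1% of the 365 bright genes (mean log2 signal above 7) fell and their median difference was -0.72, against -0.08 for all bright genes. With each chromosome centred on its bright genes Stx12 was at -0.21 (limma adjusted p = 0.00068), and Vamp3, on the same chromosome, turned to 0.29 (limma adjusted p = 4.54e-05). Stx17 also lies on chromosome 4, and its probe sets were called in both directions.

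Of the late endosomal Q-SNAREs, Stx8 (Qc) fell by 0.45, with means of 248 ± 18.0 on the arrays labelled knockout and 343 ± 18.4 on the wild-type arrays, and Stx7 (Qa) fell by 0.17, with 382 ± 11.3 labelled knockout and 431 ± 15.4 wild type. Vti1b (Qb), one of the 3 brightest probe sets of the group, had 903, 924 and 916 on the arrays labelled knockout, against 998, 1021 and 1033 on the wild-type arrays, a difference of -0.15 ± 0.04 (limma adjusted p = 0.00291). Stx7, Stx8 and Vti1b fell together with Vamp8, the R-SNARE of the same complex, but by much smaller amounts. On poly-A spike controls Stx7, Stx8 and Vti1b were at 0.28, 0.004 and 0.30, so their direction depends on the scaling, which that of Vamp8 did not. Vti1b was at -0.01 with chromosomes centred (limma adjusted p = 0.873).

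Snap47, a Qbc-SNARE of intracellular membranes, had 4427, 4476 and 4332 on the arrays labelled knockout, against 3295, 3206 and 3298 on the wild-type arrays, a difference of 0.43 ± 0.04 (limma adjusted p = 4.34e-07). Stx6, a Qc-SNARE of the trans-Golgi, had 1112, 1119 and 1053 on the arrays labelled knockout, against 1120.1, 1085 and 979.5 on the wild-type arrays, a difference of 0.05 ± 0.05 (limma adjusted p = 0.477). The arrays of Snap47 separated the groups and those of Stx6 overlapped. Stx17, the Qa-SNARE of autophagosomes, rose by 0.26 in its brightest probe set, with means of 98.7 ± 5.91 labelled knockout and 79.9 ± 3.39 wild type, but stood at -0.22 with its probe sets averaged. Its autophagosomal partner Snap29 averaged 70.6 ± 4.70 labelled knockout and 75.6 ± 3.58 wild type (difference -0.08, limma adjusted p = 0.371). Vti1a, a Qb-SNARE of the trans-Golgi, averaged 80.7 ± 6.70 labelled knockout and 92.0 ± 3.60 wild type (difference -0.16, limma adjusted p = 0.0808), which passed without knockout array 3 (limma adjusted p = 0.0443).

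**Figure D3:**
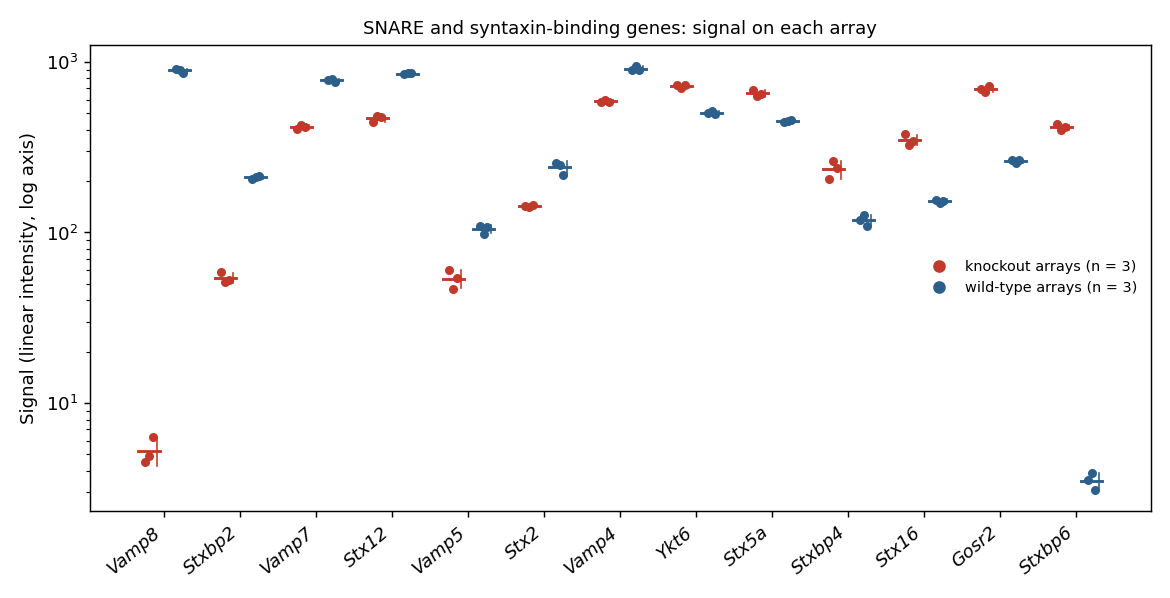
Signal on each array (y axis, linear intensity on a log axis) of the genes that passed with a difference of at least 0.5 in size and were not dim, red for arrays labelled knockout and blue for wild-type arrays (n = 3 each), with horizontal lines for means and vertical lines for SD. The groups do not overlap for any of these genes, which were chosen for their difference. Among all 10196 genes that were not dim, 8937 had no overlap. Vamp8 (4.52 to 6.29 labelled knockout, 865 to 906 wild type) and Stxbp6 (401 to 429.8 labelled knockout, 3.11 to 3.90 wild type) show the widest gaps.

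In the ER and the Golgi 7 genes were measured, of which 4 rose and 2 fell, and for all 7 the arrays of the groups did not overlap. That held for 64.7% of all genes and for 8937 of the 10196 that were not dim, and none of the 7 was dim. Gosr2, the Qb-SNARE called membrin, had 694, 662 and 724 on the arrays labelled knockout, against 265, 256 and 265 on the wild-type arrays, a difference of 1.35 ± 0.04 (limma adjusted p = 4.93e-11). That probe set's name ends in s, which Affymetrix uses for probe sets that can match several transcripts. The other Gosr2 probe set had 119 ± 4.38 on the arrays labelled knockout and 129 ± 12.9 on the wild-type arrays (SD, n = 3 each), a difference of -0.10 with overlapping arrays (limma adjusted p = 0.265 over all probe sets). The rise of Gosr2 therefore rests on a single probe set.

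Stx5a, the Qa-SNARE with which Gosr2 acts between the ER and the Golgi, had 687, 627 and 649 on the arrays labelled knockout, against 447, 451 and 459 on the wild-type arrays, a difference of 0.52 ± 0.04 (limma adjusted p = 3.33e-07). Ykt6, a lipid-anchored R-SNARE, had 728, 704 and 728 on the arrays labelled knockout, against 500.4, 513 and 494 on the wild-type arrays, a difference of 0.50 ± 0.04 (limma adjusted p = 1.33e-07). Every array labelled knockout was higher than every wild-type array for both. Stx18, the Qa-SNARE of the ER, rose by 0.46, with means of 512 ± 36.1 labelled knockout and 367 ± 10.7 wild type, and all 5 of its probe sets rose. Sec22b, the R-SNARE of ER vesicles, averaged 669 ± 1.29 labelled knockout and 650.0 ± 12.7 wild type, a difference of 0.04 (limma adjusted p = 0.364), and its other probe set rose by 0.63. Gosr1, a Qb-SNARE within the Golgi, fell by 0.43 with 114 ± 7.33 labelled knockout and 159 ± 4.16 wild type, and Bet1, the Qc-SNARE of ER vesicles, fell by 0.31 with 96.6 ± 4.24 labelled knockout and 123 ± 3.72 wild type.

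Of the 6 syntaxin-binding genes 3 rose, 1 fell and 2 did not pass. Stxbp2 had signals of 58.7, 51.2 and 52.8 on the arrays labelled knockout, against 205, 211 and 214 on the wild-type arrays, a difference of -1.69 ± 0.06 (SE; limma adjusted p = 1.79e-10). All 3 of its probe sets fell, with differences of -1.69, -2.17 and -1.37, and the names of all 3 end in x or a. Its protein serves the release of granules in cytotoxic lymphocytes, mast cells and epithelia, with the syntaxins Stx11 and Stx3 as partners. Both of these syntaxins rose here in their brightest probe sets (0.27 and 0.30), though not in their second ones. On hybridization spike controls neither rise passed. Of the leukocyte markers Lyz2 and Cd68 were higher on the arrays labelled knockout and Csf1r did not pass. Ptprc, Tyrobp, Itgam and Adgre1 were near the floor, and epithelial markers were dim in both groups, as given above. The part of such cells in the fall of Stxbp2 was not tested.

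Stxbp6 rose by 4.46 ± 0.07 (SE; limma adjusted p = 7.2e-14). Its wild-type arrays lay near the floor, and the difference was 6.53 with an offset of 1 and 2.82 with an offset of 64. The second probe set rose as well, with 101 ± 12.6 on the arrays labelled knockout and 6.71 ± 1.54 on the wild-type arrays (SD, n = 3 each), a difference of 2.36. Amisyn binds syntaxins through a domain like that of R-SNAREs but has no transmembrane anchor, and Stxbp5 (tomosyn) is built in a related way. The brightest Stxbp5 probe set rose by 0.33, with means of 108 ± 10.1 labelled knockout and 82.4 ± 5.41 wild type. Its other probe set that was not dim fell (-0.86), with 13.9 ± 1.09 labelled knockout and 38.5 ± 0.858 wild type, so the direction of Stxbp5 depends on the probe set.

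Stxbp4, a binding partner of Stx4 known as Synip, had 204, 262 and 238 on the arrays labelled knockout, against 118, 126 and 109 on the wild-type arrays, a difference of 0.90 ± 0.08 (limma adjusted p = 7.1e-07). Its groups did not overlap. Stxbp3, the Sec1/Munc18 partner of Stx4, averaged 415 ± 35.0 labelled knockout and 454 ± 8.60 wild type, a difference of -0.13 (limma adjusted p = 0.0705) that passed without knockout array 3 (-0.17, limma adjusted p = 0.0386). Stxbp5l, the second tomosyn, was dim, between 6.10 and 7.78 on the 6 arrays.

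By SNARE class the 9 R-SNAREs had 2 rises and 5 falls, and the 12 Qa-SNAREs 6 rises and 4 falls. The 4 Qb-SNAREs had 1 rise and 2 falls, the 3 Qc-SNAREs no rise and 2 falls, and the 4 Qbc-SNAREs 1 rise and 1 fall. Beside these small counts, 24.3% of all genes rose and 35.5% fell, and among the 10196 that were not dim 3766 rose and 4863 fell. Whether the classes differ from each other or from all genes was not tested.

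The members of a complex were set side by side by their brightest probe sets. In the set from the ER to the Golgi, Gosr2 and Stx5a rose, Bet1 fell and Sec22b did not pass. In the set of the trans-Golgi, Stx16 rose, Vamp4 fell, and Stx6 and Vti1a did not pass. In the autophagosomal set Vamp8 fell, Stx17 rose and Snap29 did not pass by their brightest probe sets; with probe sets averaged, Stx17 and Snap29 fell too (-0.22 and -0.23, limma adjusted p = 0.00293 and 0.00395). In the late endosomal set all 4 genes fell, within the limit from the scaling given above. In the surface set Snap23 and Vamp3 fell, and Stx4a and Vamp2 did not pass. The falls of Snap23, Vamp3 and Bet1 depend on the scaling too, since on poly-A spike controls they were at 0.010, 0.088 and 0.14. Vamp3 also turned positive with chromosomes centred. Both other Vamp4 probe sets rose, and the other Gosr2 probe set did not pass.

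For 23 of the 38 genes over 1 probe set was not dim, and for 12 of these all such probe sets were called in one direction. Probe sets of 4 genes were called in opposite directions: Stx11, Stx17, Stxbp5 and Vamp4. The brightest Vamp4 probe set fell by 0.62, while the other Vamp4 probe sets rose by 0.38 (305 ± 12.3 labelled knockout, 230.4 ± 7.95 wild type) and by 0.27. Stx17 rose in its brightest probe set, fell in 2 others (-0.31 and -0.82), and did not pass in the fourth (limma adjusted p = 0.986). With the probe sets of a gene averaged, Stx11, Stx17, Stxbp5 and Vamp4 stood at -0.12, -0.22, -0.06 and 0.01, so the direction of these 4 genes depends on the probe set.

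Further genes had probe sets that differed without being called in opposite directions. The 4 Vamp3 probe sets that were not dim fell, with differences from -0.97 to -0.36. For Stx6, whose brightest probe set did not pass, 3 others rose, by 0.18 to 0.48. The second Vti1a probe set fell (-0.96), with 34.1 ± 1.82 on the arrays labelled knockout and 81.4 ± 3.78 on the wild-type arrays. Both other Snap29 probe sets fell (-0.40 and -0.22). Ykt6, Stx3 and Gosr2 each rose in the brightest probe set and had a second one that did not pass (0.11, -0.14 and -0.10), and that of Stx3 was lower on every array labelled knockout. The genes Stx2, Stx4a, Stx7, Stx16, Stx19, Vamp8 and Vti1b had 1 probe set each, which leaves no such check.

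**Figure D4:**
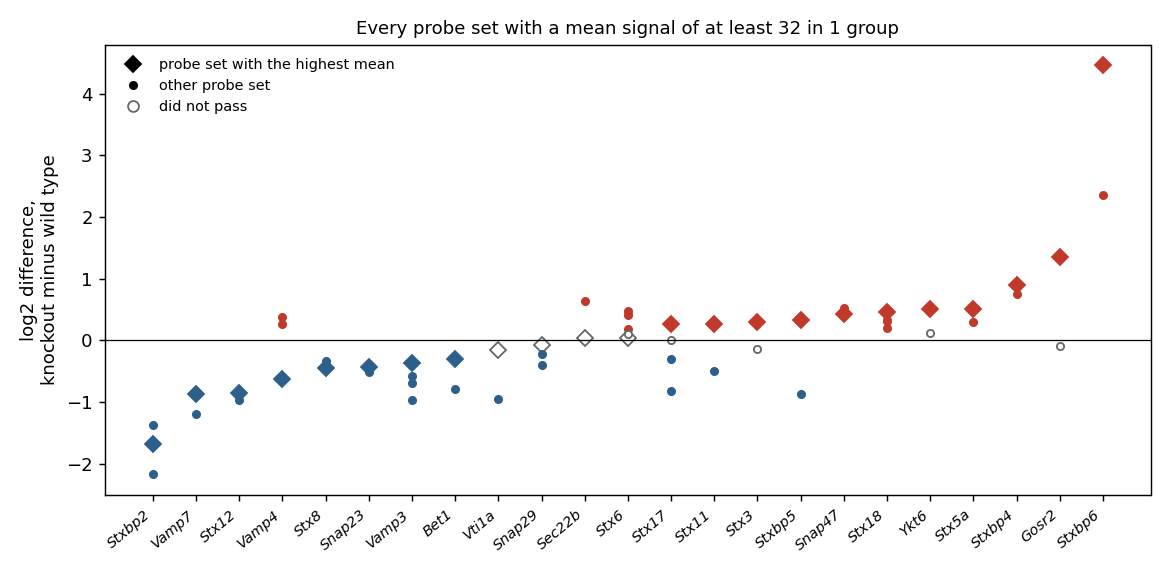
Log2 difference, knockout minus wild type (y axis), of every probe set that is not dim, for the 23 genes that have over 1 of them (x axis). Diamonds mark the brightest probe set of a gene and circles the others, red where they rose, blue where they fell and open where they did not pass. The probe sets of Stx11, Stx17, Stxbp5 and Vamp4 lie on both sides of 0, with calls in both directions. Those of Gosr2 and Stx3 do so too, but their probe sets below 0 did not pass. Those of Stxbp2 and Stxbp6 lie on one side each.

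Proteins that act with SNAREs were taken from lists of 78 genes, of which 76 were measured. Of these 26 rose, 21 fell and 29 did not pass, with 3 at least 2-fold higher and 4 at least 2-fold lower. Over all genes 24.3% rose and 35.5% fell, 7.06% were at least 2-fold higher and 8.85% at least 2-fold lower. Brightness differs too: 54 of the 76 were not dim, and among the 10196 genes that were not dim 3766 rose and 4863 fell. Of those 10196, 1264 were at least 2-fold higher and 1598 at least 2-fold lower. The exocyst, which tethers vesicles at the cell surface, had 6 rises and 3 falls among its 9 genes. Exoc5 had signals of 568, 561 and 535 on the arrays labelled knockout, against 215, 212 and 205 on the wild-type arrays (difference 1.33, limma adjusted p = 4.98e-11). Exoc2 had 219, 231 and 227 on the arrays labelled knockout, against 104, 104 and 97.2 on the wild-type arrays (difference 1.04, limma adjusted p = 3.76e-09). Exoc6 was lower, with 28.7, 29.9 and 31.7 on the arrays labelled knockout, against 142, 152 and 138 on the wild-type arrays (difference -1.79, limma adjusted p = 3.02e-10). By their brightest probe sets these subunits of a single complex thus differed in direction. Other probe sets of the listed genes were not compared.

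Of the genes that take SNARE bundles apart after fusion, Nsf, Napa and Napb rose, by 0.74, 0.37 and 0.42, and Napg was at -0.02 (limma adjusted p = 0.704). Outside the symbol rule 5 SNAREs and Sec22 homologues were measured. Bet1l rose by 0.28, Bnip1, Sec22a and Use1 fell (-0.58, -0.73 and -0.34), and Sec22c was at -0.17 (limma adjusted p = 0.0714). The 5 Sec1/Munc18 genes with other symbols had 3 rises and 2 falls, the 7 tethers of endosomes and lysosomes 4 rises and 2 falls, and the 19 tethers of the Golgi and the ER 5 rises and 5 falls. Cog8, of the Golgi tether COG, averaged 117 ± 7.03 on the arrays labelled knockout and 254 ± 19.1 on the wild-type arrays (difference -1.02, limma adjusted p = 2.57e-08). The name of the Cog8 probe set ends in x.

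Calcium sensors and priming factors of secretion were mostly dim: 20 of 27, with 4 rises and 6 falls. Syt1 and Unc13c, which rose, and Cplx3, Syt4 and Doc2a, which fell, were themselves dim, and the arrays of Doc2a overlapped. Unc13d, which primes granules for fusion in cytotoxic lymphocytes, averaged 18.6 ± 1.53 on the arrays labelled knockout and 106 ± 10.6 on the wild-type arrays (difference -1.81, limma adjusted p = 1.3e-09). Syt7, the calcium sensor of lysosome exocytosis, averaged 9.64 ± 2.30 on the arrays labelled knockout and 46.5 ± 0.300 on the wild-type arrays (difference -1.29, limma adjusted p = 9.02e-09). Cplx2, a complexin that binds assembled SNAREs, averaged 176 ± 15.5 on the arrays labelled knockout and 64.3 ± 5.32 on the wild-type arrays (difference 1.25, limma adjusted p = 1.87e-08).

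**Figure D5:**
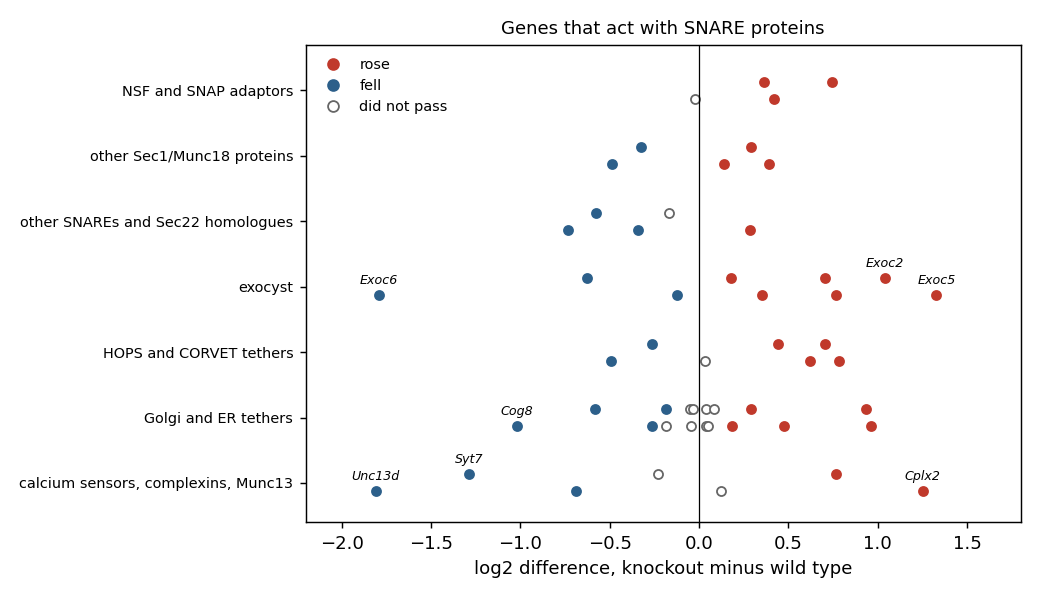
Log2 difference, knockout minus wild type (x axis), of the 54 genes that are not dim in the lists of proteins that act with SNAREs, 1 list a row, with points filled red for genes that rose, blue for those that fell and open for those that did not pass. Exoc5, Cplx2 and Exoc2 lie beyond 1, and Unc13d, Exoc6, Syt7 and Cog8 beyond -1.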

How the data were processed

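The deposited table holds 1 linear signal intensity for each of 45101 probe sets on 6 arrays, labelled from 6 µg of total RNA per the labels' protocols. MAS5 is named in the submitters' processing notes, per the labels, with no version or settings given in the sources used here. The authors deposited intensities that were already brought to a similar level, without detection calls, and they were not normalized further. Groups and replicate numbers came from the sample titles.

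The platform annotation gave 1 gene symbol to 34945 probe sets and several to 932; 9160 probe sets without an entry and 64 controls were left out. Symbols were updated by Entrez number through RefSeq (GRCm38.p6; 34741 matched). The brightest probe set over the 6 arrays stood for each of 18193 genes. Signals became log2(signal + 16), and limma 3.58.1 in R 4.3.3 (lmFit, eBayes with trend) tested knockout minus wild type over all genes, two-sided, with Benjamini-Hochberg adjustment. Values of single probe sets came from a fit over all probe sets with 1 symbol. The steps were tested on simulated data.

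The members and lists were chosen with earlier results of these data known. Array values are given for members past an adjusted p of 0.05 with a difference of at least 0.5 and a mean of at least 32 in 1 group, and for the 3 with the highest mean; dim members are given by range; machinery genes are named past a difference of 1. The 20 alternatives were offsets of 1 and 64, quantile normalization, centring arrays on the median, both spike scalings, no dim genes, averaged probe sets, no probe sets with the suffix x, s or a, eBayes robust or without trend, array weights, a replicate block, leaving out each array, and, added after seeing the data, centring chromosomes.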

Additional observations from a re-analysis of the deposited data

How the results depend on the processing

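Of 751 values of single genes over the 20 alternatives, 674 kept their direction and their side of the threshold, 28 passed only under the alternative, 13 no longer passed and 36 changed sign; 12 of the 38 genes kept both in every alternative run for them. Scaling decided the counts. Both spike scalings and array centring shifted every log2 value of an array by the same amount, after the offset was added. Dim genes thus moved by the full amount: on poly-A spike controls Snap25 went from 0.01 to 0.46 (limma adjusted p = 2.12e-06). Such calls are part of the counts below, and the sign changes of dim Snap25, Stx19, Vamp1 and Stxbp5l on spike controls are of this kind. On poly-A spike controls, which differed between the groups by -0.45 (knockout minus wild type, log2), 25 genes rose, 6 fell and the median was 0.39; on hybridization spike controls, which differed by 0.26, 8 rose, 24 fell, 5 were at least 2-fold lower and the median was -0.32. Over all genes the rises were 40.6% of the calls, 29.4% with arrays centred on the median, 82.9% on poly-A and 17.1% on hybridization spike controls. With dim genes left out the median was -0.12. Without the probe sets whose names end in x, s or a no gene was at least 2-fold lower (0), since Vamp8 and Stxbp2 have only such probe sets; Gosr2 was then at -0.10 and Vamp5 at -0.05 (limma adjusted p = 0.451). Stxbp6 ranged from 2.82 to 6.53, Vamp8 from -7.17 to -3.79 and Stxbp2 from -1.95 to -1.21.

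Signs changed mostly for small differences. On poly-A spike controls Snap23 was at 0.010, Stx19 at 0.41, Stx4a at 0.33, Vamp3 at 0.088, Snap29 at 0.37, Stx7 at 0.28, Stx8 at 0.0039, Vti1a at 0.29, Vti1b at 0.30, Bet1 at 0.14, Gosr1 at 0.017, Stxbp3 at 0.32 and Stxbp5l at 0.44. On hybridization spike controls Snap25 was at -0.25, Vamp1 at -0.10, Vamp2 at -0.18, Stx17 at -0.00038, Stx6 at -0.21 and Sec22b at -0.22. With arrays centred on the median Snap25 was at -0.039, Stx6 at -0.0045 and Sec22b at -0.0082. With probe sets averaged Stx11 was at -0.12, Stx17 at -0.22, Vamp4 at 0.0096 and Stxbp5 at -0.064. With array weights Stxbp5l was at 0.0030, and with chromosomes centred Stx4a was at 0.039, Vamp3 at 0.29 and Sec22b at -0.073. Beyond what is said here of probe sets, the causes were not tested.

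Leaving out 1 array at a time gave 12 to 13 rises, 15 to 18 falls, 3 genes at least 2-fold higher, 2 at least 2-fold lower and medians from -0.08 to -0.04; Stxbp5l ranged from -0.042 to 0.011, Snap25 from -0.0019 to 0.019 and Stx6 from -0.011 to 0.085. The 18 falls came without knockout array 3, where Stx4a, Vti1a and Stxbp3 passed. With a replicate block 13 genes rose, 17 fell, and 3 and 2 were at least 2-fold higher and lower; Stx4a and Stxbp3 passed there (limma adjusted p = 0.0368 and 0.0444), but the numbers were not taken as pairs, since the deviations of same-numbered arrays correlated at 0.043, 0.159 and 0.212. Each array correlated best with its own number, a hint from the data and not the design. Signals near the floor have no reliable order.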

Other observations

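Genes beside the 3 members with the largest differences were looked at after those differences were seen, in the gene order of RefSeq. On chromosome 6 Capg, an actin-capping protein 4 genes from Vamp8, averaged 43.0 on the arrays labelled knockout and 547.8 on the wild-type arrays, a log2 difference of -3.26 (limma adjusted p = 4.77e-12). Between them Ggcx and Sh2d6 did not pass (0.19 and 0.02; limma adjusted p = 0.0571 and 0.815). On the other side Vamp5 fell by 0.80, Rnf181 by 0.35 and 0610030E20Rik by 0.37, while Tmem150a rose by 1.95, with means of 145.7 on the arrays labelled knockout and 26.0 on the wild-type arrays. Bright genes of chromosome 6 had a median difference of -0.29.

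Around Stxbp6 on chromosome 12 Dnajb9, Pnpla8 and Nova1 rose, by 0.90, 0.38 and 0.69, and Prkd1 and G2e3 fell by 0.99 and 0.77. Nova1 was dim (18.4 on the arrays labelled knockout, 5.20 on the wild-type arrays), and Nrcam and Lrrn3 were near the floor. Around Stxbp2 on chromosome 8 all 8 neighbours measured fell, from Pcp2 by 0.15 to Camsap3, a protein of microtubule minus ends, by 1.66 (5.22 on the arrays labelled knockout, 51.1 on the wild-type arrays). Pcp2, Mcemp1 and Fcor among them were dim, and signals near the floor have no reliable order. Bright genes of chromosome 8 had a median difference of -0.49, and 71.1% of them fell.

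A probe set annotated to both Vamp1 and E130112N10Rik had signals of 6.95, 9.20 and 9.06 on the arrays labelled knockout, against 11.7, 9.20 and 9.89 on the wild-type arrays, and was left out of the gene tests.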
